A study of Mus musculus with 18 samples.

Results

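The genes described here are the 32 genes of glucose uptake, glycolysis, lactate export and pyruvate entry into mitochondria listed by symbol: 3 glucose transporters, 2 hexokinases with glucose phosphate isomerase, 3 phosphofructokinase subunits with the regulatory enzyme gene Pfkfb3, 9 genes of lower glycolysis, 2 lactate dehydrogenases with 2 lactate transporters, 3 pyruvate dehydrogenase kinases, 4 genes of the pyruvate dehydrogenase complex, and the oxygen-sensing pair Hif1a and Egln3. Members were found by their symbol in the array annotation, and the brightest probe set stood for each gene. Of the 32 genes, 29 had a probe set of their own among the 18193 genes so represented, and 28 were bright enough to be tested among 13769 genes. The lactate exporter gene Slc16a3 was the 1 that was too dim. No probe set was named for Gpi1 or Eno1 in the annotation used, so both are not analysed here, and Gapdh was read only from its array control probe sets.

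RNA levels were read on 18 Affymetrix mouse arrays, each carrying RNA from splenic CD8 T cells of F5 mice on the C57Bl/6 background, which carry a transgenic T cell receptor. Memory cells, called TIM in the labels, were generated by repeated immunisation of naive F5 mice with the peptide NP68 and were taken at day 45, whereas naive cells came from F5 mice with no such treatment named. All cells were sorted by flow cytometry. Values are log2 RMA values as deposited. Memory cells were cultured for 20 hours with IL-4 (20 ng/mL) and IL-7 (10 ng/mL), with IL-4 alone, with IL-7 alone or in medium, with 2 arrays each, and 4 arrays held memory cells ex vivo, that is, after sorting with no culture. Naive cells were cultured for 20 hours with IL-4 and IL-7 or with IL-7 alone, and were also measured ex vivo, with 2 arrays each. No naive cells were cultured without IL-7. As a model, the cells share a transgenic receptor, and the memory cells come from a peptide immunisation and not from an infection.

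Glucose enters a T cell through facilitative transporters of the GLUT family and is trapped by hexokinase, after which phosphofructokinase commits it to glycolysis. The end product pyruvate is either reduced to lactate by lactate dehydrogenase and exported by monocarboxylate transporters, or enters mitochondria through the pyruvate dehydrogenase complex, which pyruvate dehydrogenase kinases switch off. T cells raise this pathway when their antigen receptor is engaged, and resting cells kept alive by IL-7 run it at a lower rate.

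The cells had CD8 T cell markers, and part of the memory markers set memory cells apart. The 6 CD8 T cell markers with a probe set averaged between 11.59 and 12.19 on every array. The memory genes Ccl5 and Cxcr3 were higher by 6.12 and 5.44 in ex vivo memory cells than in ex vivo naive cells (adjusted p = 8.71e-08 and 1.35e-07, limma). The other 2 tested genes of the memory list did not pass there. Of the naive-state list, Ccr7 and Lef1 were tested and neither passed, with a median change of -0.19. The array labelled memory in medium, replicate 2, stood apart from its label: over the genes tested its closest array was number 2 of the ex vivo memory group (r = 0.9954), and its correlation with medium array 1 was lower (r = 0.9558). Counts and named changes of members that use the medium group are therefore given with and without it, and it enters the spread estimate of all other comparisons. The design text names 2 sorted naive and 4 sorted memory populations, and the titles of the ex vivo arrays call them biological replicates. Titles of cultured arrays say only replicate. No label ties a cultured array to a population by number or says that populations came from separate animals. P-values therefore reflect only how far these arrays differ, and between cultured arrays that may be technical. In bulk RNA, fewer cells of a type and less RNA per cell cannot be told apart.

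**Figure D1:**
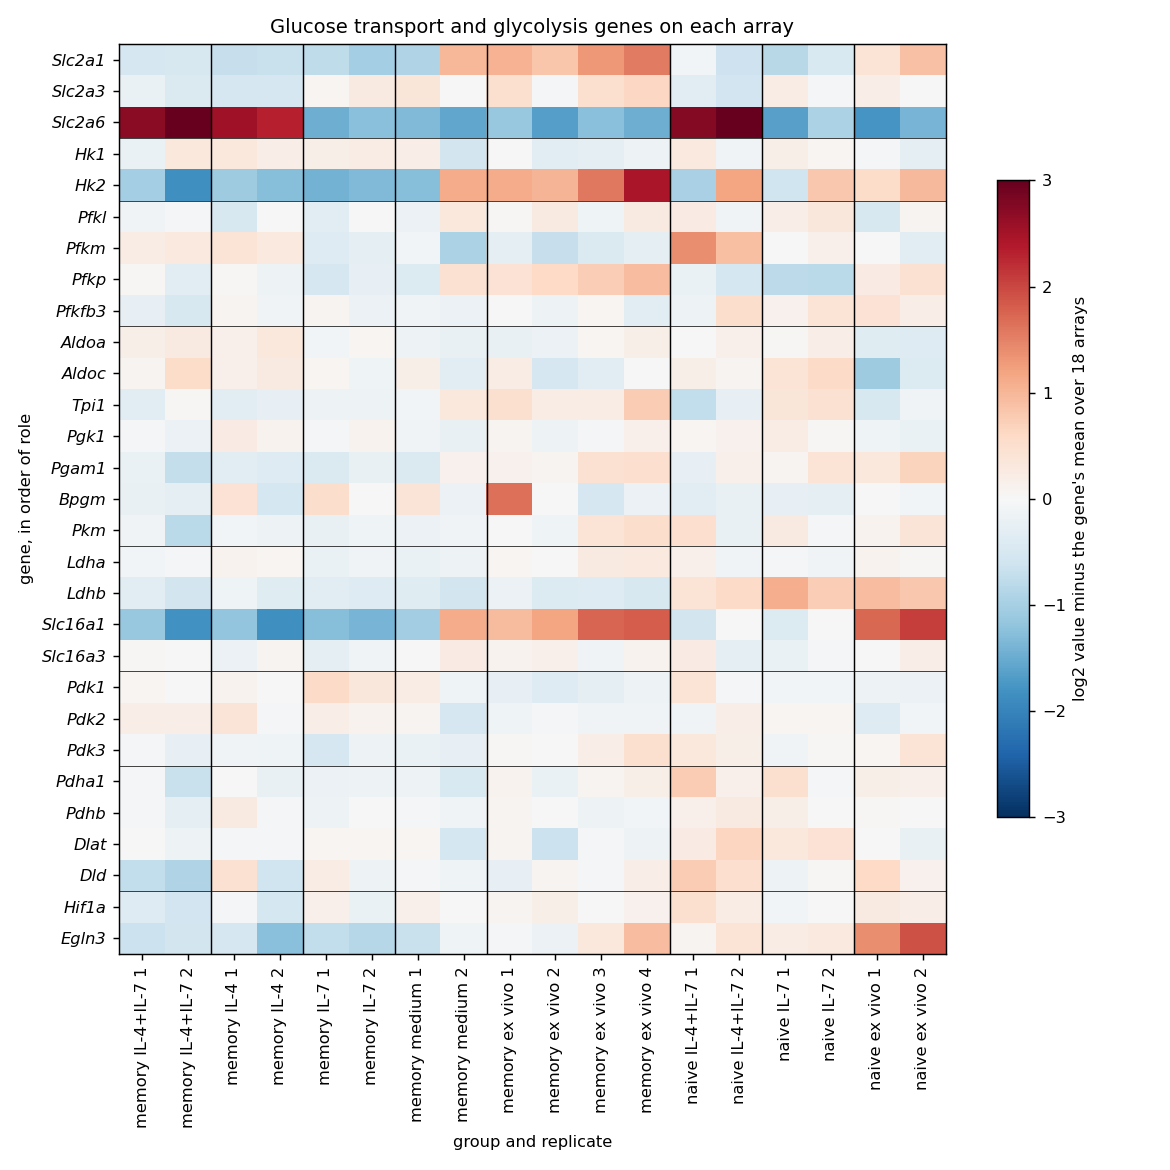
Log2 value of each of the 29 genes with a probe set of its own (rows, in order of role) on each of the 18 arrays (columns, by group and replicate), minus the gene's mean over the 18 arrays; colours end at 3 log2 units either way. Slc2a6 is high on the 6 arrays with IL-4, Slc2a1, Hk2, Pfkp and Slc16a1 are high on ex vivo arrays and on memory medium array 2, and Ldhb is higher on naive than on memory arrays.

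The members with the largest changes were the glucose transporter genes Slc2a6 and Slc2a1, the hexokinase gene Hk2 and the lactate transporter gene Slc16a1. Their promoter windows are shown because these 4 genes carry the main results. Each runs from 250 bases before to 50 bases after the RefSeq transcript start on build GRCm38.p6 and is written along the gene's strand. Capitals mark ACGTG or GCGTG on either strand, the core letters that hypoxia-inducible factor is known to recognise. The windows are chr2:27027949-27028248 (minus strand) for Slc2a6, chr4:119108495-119108794 (plus strand) for Slc2a1, chr6:82774405-82774704 (minus strand) for Hk2 and chr3:104638414-104638713 (plus strand) for Slc16a1.
Slc2a6: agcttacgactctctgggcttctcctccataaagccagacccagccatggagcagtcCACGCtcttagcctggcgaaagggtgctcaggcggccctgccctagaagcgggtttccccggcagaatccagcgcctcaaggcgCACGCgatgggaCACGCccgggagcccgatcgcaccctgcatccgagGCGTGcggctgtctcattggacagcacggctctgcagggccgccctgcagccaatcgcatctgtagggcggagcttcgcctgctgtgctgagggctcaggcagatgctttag
Slc2a1: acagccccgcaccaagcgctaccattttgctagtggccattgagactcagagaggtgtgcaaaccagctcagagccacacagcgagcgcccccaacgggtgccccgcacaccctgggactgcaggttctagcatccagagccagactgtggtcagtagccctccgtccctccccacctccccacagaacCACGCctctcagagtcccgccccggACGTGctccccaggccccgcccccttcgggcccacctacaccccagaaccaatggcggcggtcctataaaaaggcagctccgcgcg
Hk2: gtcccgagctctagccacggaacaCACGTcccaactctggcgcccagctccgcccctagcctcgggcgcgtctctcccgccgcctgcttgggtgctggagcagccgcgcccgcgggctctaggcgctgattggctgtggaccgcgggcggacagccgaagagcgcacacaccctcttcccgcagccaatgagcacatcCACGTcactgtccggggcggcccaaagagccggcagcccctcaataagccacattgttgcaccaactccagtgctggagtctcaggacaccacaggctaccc
Slc16a1: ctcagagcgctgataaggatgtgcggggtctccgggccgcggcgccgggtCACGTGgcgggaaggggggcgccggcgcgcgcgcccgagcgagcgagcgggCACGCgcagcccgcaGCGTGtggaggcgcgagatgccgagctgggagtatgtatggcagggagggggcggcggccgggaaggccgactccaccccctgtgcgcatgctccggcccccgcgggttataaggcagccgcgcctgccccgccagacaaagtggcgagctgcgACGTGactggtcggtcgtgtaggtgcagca
The core letters start at 4 positions in the Slc2a6 window, 2 in that of Slc2a1, 2 in that of Hk2 and 5 in that of Slc16a1, where CACGTG counts on both strands. They occurred in 34 of the 45 windows of 31 members (75.6%) and in 43.8% of all 32851 windows of the same length. Member windows were also richer in G and C, with a median of 62.0% against 52.7% over all windows, and motif and base composition cannot be told apart here. The letters TTCNNNNGAA, which STAT6, the factor activated by IL-4, is known to prefer, were in 3 member windows and in 6.95% of all windows, and the Slc2a6 window held none. The letters TTCNNNGAA, bound by STAT5 downstream of IL-7, were in 2 member windows and 8.30% of all. CACGTG, the E-box that Myc binds and which overlaps the first motif, was in 6 member windows and 7.15% of all. These matches describe letters only.

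With IL-4, Slc2a6 rose in memory and in naive cells, and it was the only one of the 28 tested members past the threshold of adjusted p under 0.05 (limma, Benjamini-Hochberg over 13769 genes) in each of the 3 IL-4 comparisons. In memory cells with IL-7, 1 member was higher and 0 were lower, beside 1.81% of all genes called in either direction. In memory cells without IL-7, 1 was higher and 0 lower, beside 1.94% of all genes. In naive cells with IL-7, 1 was higher and 0 lower, beside 1.26% of all genes. The median change of the 28 members was -0.09, 0.07 and 0.00 in these comparisons, against 0.08, 0.06 and 0.00 over all genes tested. At an unadjusted p under 0.05 the counts of members were 6, 6 and 7.

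Slc2a6 encodes GLUT6, a hexose transporter found mainly inside the cell, on lysosomes. It measured 8.12 and 8.44 in memory cells with IL-4 and IL-7, 7.97 and 7.75 in memory cells with IL-4 alone, and 8.17 and 8.89 in naive cells with IL-4 and IL-7. The 12 arrays without IL-4 lay between 3.65 and 4.48, around the filter value of 4.06 that marks dim genes. All 6 arrays with IL-4 stood more than 3 log2 units above every array without it, whichever the cell type and whether or not IL-7 was present. The rise was 4.22 (SE 0.28, 18.6-fold, adjusted p = 1.14e-06) in memory cells with IL-7. It was 3.89 (SE 0.28, 14.8-fold, adjusted p = 2.29e-06) in memory cells without IL-7, and 3.77 when medium array 2 was left out. In naive cells it was 4.40 (SE 0.28, 21.1-fold, adjusted p = 1.31e-06). The memory response minus the naive response was -0.18, with a 95% confidence interval from -1.01 to 0.65 (adjusted p = 0.885). Since the arrays without IL-4 were at the level of dim genes, the size of these folds is uncertain. Slc2a6 has a single probe set named for it alone, so a further probe set cannot be set beside it.

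The other glucose transporters did not follow Slc2a6. Slc2a3, the gene of the high-affinity transporter GLUT3, changed by -0.48 (95% interval -0.95 to -0.01) with IL-4 among memory cells given IL-7, by -0.68 (-1.16 to -0.21) in memory cells without IL-7 and by -0.56 (-1.03 to -0.09) in naive cells. None of the 3 passed the test (adjusted p = 0.34, 0.162 and 0.434). In each comparison the arrays with IL-4 lay below those without it. Here and below, groups of 2 arrays can separate by chance, and the share of all genes that did so was not counted. Slc2a1, the gene of GLUT1, the transporter most often followed in activated T cells, changed by 0.40 (-0.53 to 1.34), -0.72 (-1.65 to 0.22) and 0.30 (-0.63 to 1.23) with intervals on both sides of 0. Without medium array 2, the change of Slc2a1 in memory cells without IL-7 turned to 0.23 and that of Slc2a3 became -0.88 (adjusted p = 0.159).

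Among the phosphofructokinases, the muscle-type subunit gene Pfkm measured 7.54 and 7.61 in memory cells with IL-4 and IL-7, against 6.92 and 7.04 with IL-7 alone. It measured 7.72 and 7.59 with IL-4 alone, against 7.23 and 6.36 in medium. In naive cells it measured 8.70 and 8.22 with IL-4 and IL-7, against 7.32 and 7.45 with IL-7. The arrays with IL-4 were the higher ones in all 3 comparisons, with no overlap, though 2 arrays a group can separate by chance. The changes of 0.59 (SE 0.25, adjusted p = 0.303), 0.86 (SE 0.25, adjusted p = 0.116) and 1.07 (SE 0.25, adjusted p = 0.057) did not pass. The change in memory cells without IL-7 was 0.43 without medium array 2 (adjusted p = 0.729). With either medium array out of the fit, which leaves the other to add nothing to the spread estimate, 3 members passed in naive cells, beside 2.11% of all genes: Slc2a6, Pfkm (adjusted p = 0.00918) and Tpi1 (adjusted p = 0.0474). Over 13 refits the adjusted p of Pfkm ran between 0.00918 and 0.506. The other subunit genes Pfkl and Pfkp and the gene Pfkfb3, whose enzyme makes the sugar phosphate that activates phosphofructokinase, changed by at most 0.43 in size in any of the 3 comparisons.

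Tpi1, the gene of triosephosphate isomerase, measured 9.68 and 10.16 in naive cells with IL-4 and IL-7, against 10.79 and 10.88 with IL-7 alone. In memory cells it measured 10.09 and 10.45 with IL-4 and IL-7, against 10.27 and 10.26 with IL-7. The naive arrays did not overlap and the memory arrays did. The change was -0.91 in naive cells (SE 0.23, adjusted p = 0.0825, and between 0.027 and 0.622 over 13 refits) and 0.01 in memory cells (adjusted p = 0.993). The difference between the memory and naive responses was 0.92 (95% interval 0.22 to 1.62, adjusted p = 0.397).

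Dld, the gene of the dihydrolipoyl dehydrogenase subunit of the pyruvate dehydrogenase complex, had changes of opposite sign in memory and naive cells, neither past the test. It measured 7.46 and 7.30 in memory cells with IL-4 and IL-7, against 8.41 and 8.03 with IL-7 alone. In naive cells it measured 8.96 and 8.69 with IL-4 and IL-7, against 8.04 and 8.23 with IL-7. Neither pair of groups overlapped. The changes were -0.84 (adjusted p = 0.169) and 0.69 (adjusted p = 0.464), and the memory response minus the naive response was -1.53 (95% interval -2.38 to -0.68, adjusted p = 0.273), the largest such difference among the members. With IL-4 alone, memory cells measured 8.64 and 7.60, against 8.14 and 8.07 in medium, so the arrays with IL-4 alone lay on both sides of those in medium. No member passed the test of a different IL-4 response in memory and naive cells (limma, 0 of 28, 4 at an unadjusted p under 0.05), beside 0.0726% of all genes.

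**Figure D2:**
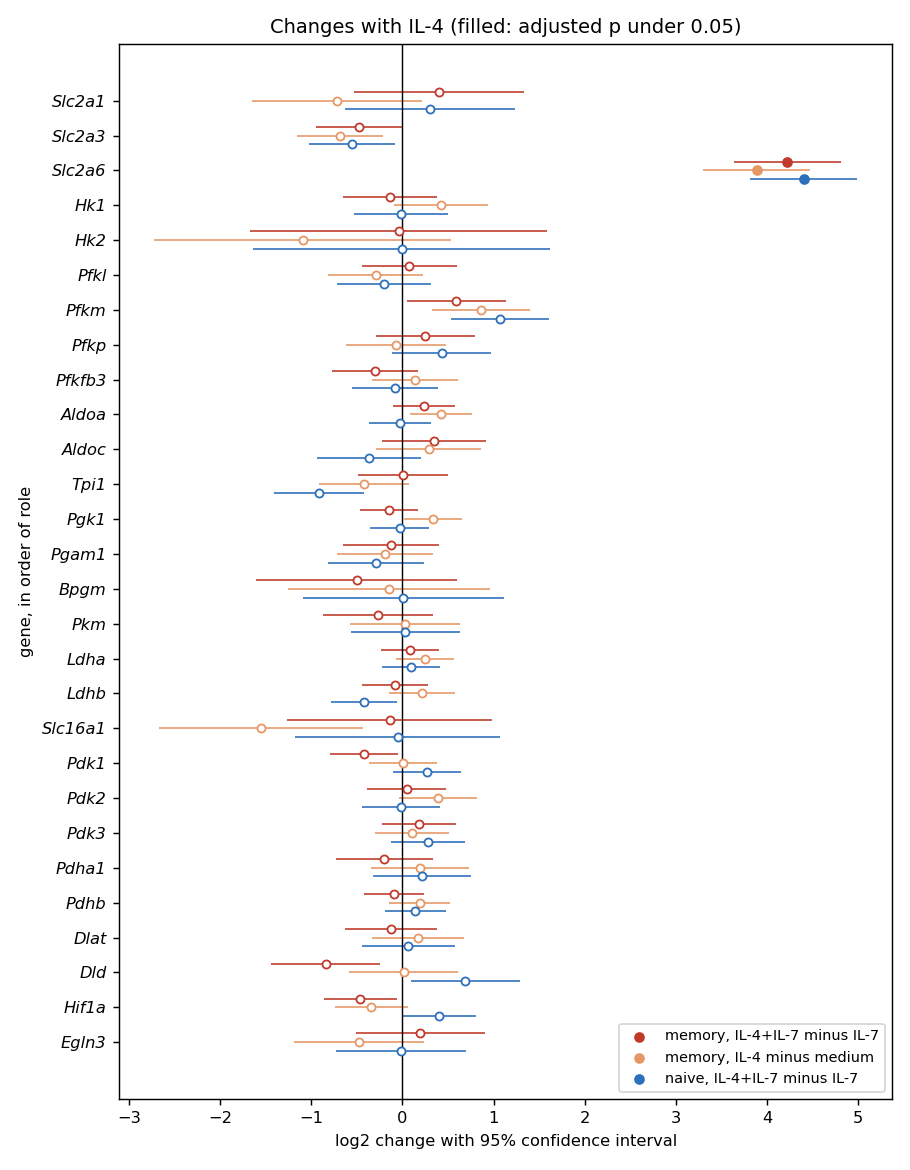
Change with IL-4 (x axis, log2, with its 95% confidence interval) of each of the 28 tested members (y axis, in order of role) in memory cells (with IL-7, then without it) and in IL-7-treated naive cells. Filled points have an adjusted p under 0.05: these are the 3 points of Slc2a6, at 4.22, 3.89 and 4.40, while the other members lie between -1.55 and 1.07. The -1.55 is Slc16a1 against both medium arrays and is -0.47 without medium array 2.

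In memory cells cultured without IL-7, the comparison of IL-4 with medium depends on the 2 unlike medium arrays. Slc16a1 measured 7.62 and 6.96 with IL-4, against 7.76 and 9.93 in medium, and Hk2 measured 6.54 and 6.32 with IL-4, against 6.33 and 8.72 in medium. The first medium array lay at the level of the other cultured memory arrays and the second at that of ex vivo memory cells. The changes of -1.55 for Slc16a1 (SE 0.52, adjusted p = 0.186) and -1.10 for Hk2 (SE 0.76, adjusted p = 0.594) did not pass. Without medium array 2 they were -0.47 for Slc16a1 and 0.10 for Hk2 (adjusted p = 0.95 and 0.999), so the sign of Hk2 turned. Without medium array 1, which leaves the array that resembles ex vivo cells, 7 members were called (4 higher and 3 lower), beside 17.2% of all genes. Without medium array 2, 1 member was called, Slc2a6, beside 1.54% of all genes.

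IL-7 changed no member past the threshold. In memory cells without IL-4, 0 of 28 members passed in IL-7 against medium (limma, 2 at an unadjusted p under 0.05, Pdk1 and Slc16a1), beside 0% of all genes. Without medium array 1, 5 members passed, beside 16.3% of all genes, and without medium array 2 none did. In memory cells with IL-4, 0 of 28 members passed in IL-4 and IL-7 against IL-4 (limma, 1 at an unadjusted p under 0.05, Dld at -0.74), beside 0% of all genes. These comparisons share arrays with the IL-4 comparisons.

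Memory and naive cells differed in Ldhb and Egln3 directly after sorting. Of 28 members, 0 were higher and 2 lower in ex vivo memory cells, beside 1.93% of all genes called in either direction, and the median change was -0.04, against 0.03 over all genes. Ldhb, the gene of the heart-type lactate dehydrogenase subunit, measured 8.38, 8.15, 8.18 and 8.08 in ex vivo memory cells, against 9.48 and 9.37 in ex vivo naive cells. The groups were apart by more than the spread within either. Ldhb was lower by 1.23 on the log2 scale in memory cells, that is 2.34-fold (change -1.23, SE 0.15, adjusted p = 0.000225). Its 3 other probe sets changed by -1.92, -1.66 and -1.68, each past the threshold. In cells cultured with IL-7, Ldhb measured 8.22 and 8.18 in memory cells, against 9.64 and 9.30 in naive cells (change -1.27, SE 0.17, adjusted p = 0.000706). It was the only member called in that comparison, beside 2.7% of all genes. All 12 memory arrays lay at or below 8.44, and all 6 naive arrays between 8.97 and 9.64. Ldha, the gene of the muscle-type subunit, lay between 11.80 and 12.29 over all 18 arrays and was not called in any comparison.

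Egln3 encodes PHD3, an oxygen-dependent prolyl hydroxylase that marks hypoxia-inducible factor for degradation and is itself a target of that factor. It measured 7.13, 6.98, 7.47 and 8.08 in ex vivo memory cells, against 8.55 and 9.06 in ex vivo naive cells. The naive arrays were the highest, and memory array 4 came closest to them. The change was -1.39 (SE 0.29, 2.62-fold, adjusted p = 0.0212). In a dimmer probe set of Egln3 the change was -0.36 (adjusted p = 0.266). Without naive array 1 or 2, or without memory array 1 or 2, Egln3 no longer passed, and over all refits its adjusted p ran between 0.00341 and 0.257. With IL-7 it measured 6.42 and 6.31 in memory cells, against 7.39 and 7.45 in naive cells (change -1.05, adjusted p = 0.128). Hif1a, the gene of the oxygen-regulated subunit itself, changed by -0.14 ex vivo. Markers of other cells also differed in this comparison. The B cell marker Ms4a1 was higher by 1.55 in ex vivo memory cells (adjusted p = 0.0415). The 4 markers of cells with MHC class II summed to 7.82 to 9.52 on the log2 scale in ex vivo memory cells, against 7.20 to 7.43 in ex vivo naive cells, with a median change of 1.34 and none past the test. The part of these in the results for Ldhb and Egln3 was not tested.

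**Figure D3:**
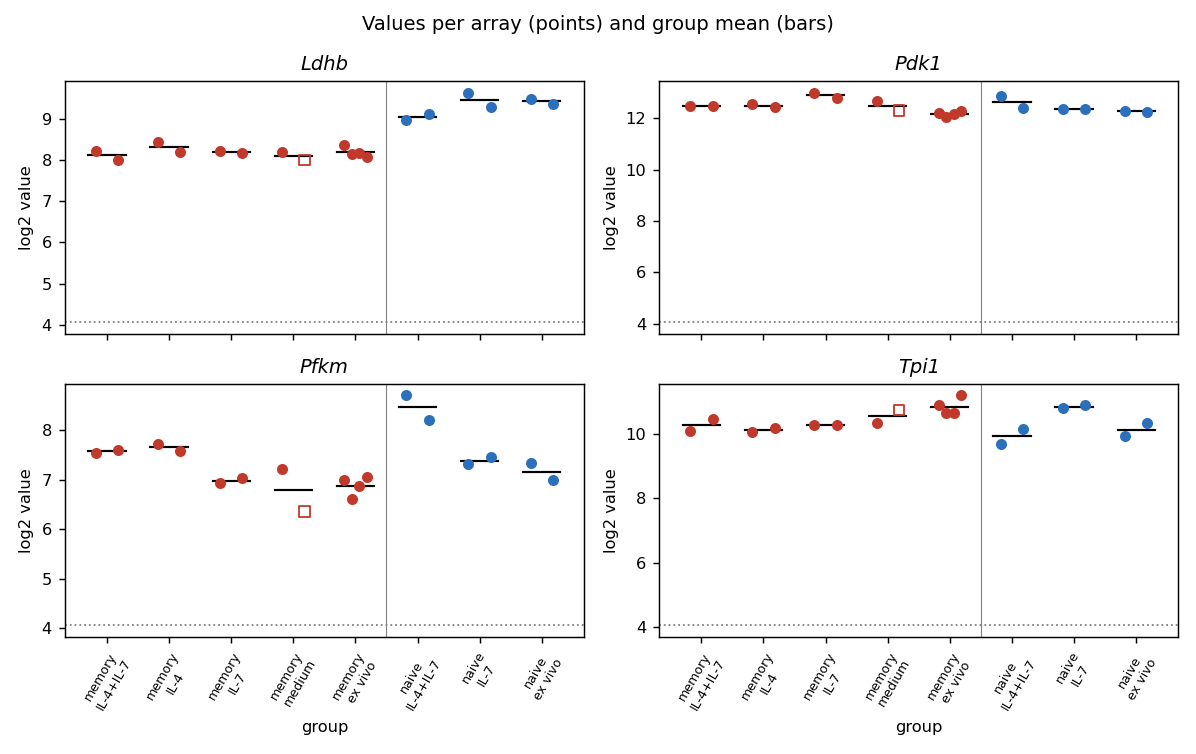
Log2 values per array (points) and group means (bars) of Ldhb, Pdk1, Pfkm and Tpi1 in the 8 groups on the x axis, memory cells left of the vertical line and naive cells right of it. The open square is memory medium array 2 and the dotted line the filter value of 4.06; for Ldhb the 12 memory arrays (at most 8.44) lie below the 6 naive arrays (8.97 to 9.64).

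Tpi1 measured 10.90, 10.64, 10.64 and 11.19 in ex vivo memory cells, against 9.93 and 10.32 in ex vivo naive cells. No memory array was as low as a naive one. The change of 0.72 (SE 0.20, adjusted p = 0.0906) passed in 2 of 15 refits, those without one or the other medium array (adjusted p = 0.049 in both, highest 0.464 over the 15), when 3 members were called beside 4.39% of all genes. In IL-7 culture the order was turned, with 10.27 and 10.26 in memory cells against 10.79 and 10.88 in naive cells (change -0.57, adjusted p = 0.278). The culture response of Tpi1 was -0.58 in memory cells and 0.71 in naive cells. Neither was past the threshold with all arrays fitted, and whether each passed varied between refits. The difference between the 2 responses was -1.29 (95% interval -1.94 to -0.63, adjusted p = 0.145).

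With all arrays fitted, culture with IL-7 gave the most members called, and also the largest shares of all genes called. Whether members were called more often than other genes was not tested. In memory cells, 7 of 28 members passed against ex vivo cells, beside 19.9% of all genes. Of these, 6 were lower, beside 8.85% of all genes, and 1 was higher, beside 11.1% of all genes. The lower ones were Slc2a1, Hk2, Pfkp, Slc16a1, Pdk3 and Egln3, and the higher one was Pdk1. The median change of the members was -0.08, against -0.05 over all genes. None of the 7 was called when either memory IL-7 array was left out, although the direction of each stayed the same, and 9 were called without either one of the medium arrays, beside 26.9% of all genes. With the replicate number as a block, 4 were called, beside 10.5% of all genes, and Pfkp (adjusted p = 0.0509), Egln3 (adjusted p = 0.11) and Pdk3 (adjusted p = 0.196) missed the threshold. In naive cells, 4 of 28 members passed, beside 12.8% of all genes. Of these, Pfkp, Slc16a1 and Egln3 were lower, beside 5.8% of all genes, and Aldoc was higher, beside 7.01% of all genes. This count was 7 without either one of the medium arrays, beside 20.1% of all genes, and between 0 and 2 without any 1 of the 4 naive arrays compared. Memory and naive cells share no array in these 2 comparisons, but the IL-7 arrays are also those of the IL-4 comparisons.

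Slc2a1 measured 8.85 and 8.58 in memory cells with IL-7, against 10.64, 10.43, 10.90 and 11.17 in ex vivo memory cells. In naive cells it measured 8.77 and 9.14 with IL-7, against 10.01 and 10.49 ex vivo. Neither pair of groups overlapped. Slc2a1 fell by 2.07 on the log2 scale in memory cells (change -2.07, SE 0.38, 4.20-fold, adjusted p = 0.00537), and its other probe sets changed by -2.27 and -2.36, both past the threshold. In naive cells the change was -1.30 (SE 0.43, adjusted p = 0.0647, and between 0.00223 and 0.314 over 13 refits). The other probe sets changed by -1.64 and -1.61 (adjusted p = 0.0443 and 0.0391).

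Hk2, the gene of the inducible hexokinase that sits on mitochondria, had the largest change of any member in memory IL-7 culture against ex vivo cells. It measured 6.17 and 6.27 with IL-7, against 8.70, 8.61, 9.17 and 10.04 ex vivo. The cultured memory arrays with IL-4, at 5.77 to 6.59, were as low, and every one of the cultured memory arrays except medium array 2, at 8.72, lay below every ex vivo array. Hk2 fell by 2.91 (change -2.91, SE 0.66, 7.53-fold, adjusted p = 0.0102). In naive cells the arrays of a group were far apart. Hk2 measured 7.01 and 8.41 with IL-7 and 6.61 and 8.79 with IL-4 and IL-7, against 8.15 and 8.57 ex vivo. The second array of each naive culture was as high as ex vivo cells and the first was lower. The naive change was -0.65 (95% interval -2.27 to 0.98, adjusted p = 0.664), and the memory response minus the naive response was -2.26 (-4.41 to -0.11, adjusted p = 0.456).

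The same arrays stood apart in genes that antigen receptor signals are known to induce. Nr4a1 measured 6.88 and 9.62 in naive cells with IL-7 and 6.70 and 10.20 with IL-4 and IL-7, against 12.35 and 11.84 in ex vivo naive cells. Irf4, a transcription factor gene of activated T cells, measured 5.04 and 10.77 with IL-7 and 5.80 and 11.23 with IL-4 and IL-7, against 9.32 and 8.47 ex vivo. In memory cells with IL-7, Nr4a1 measured 5.77 and 5.64, against 12.54 to 12.86 ex vivo, and medium array 2 was at 12.60. So for Hk2, Nr4a1 and Irf4 alike, the second naive array of each culture was the higher one, and their part in the Hk2 result was not tested. These genes were set beside Hk2 after their values were seen.

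Pfkp, the platelet-type phosphofructokinase subunit gene, measured 9.68 and 9.94 in memory cells with IL-7, against 10.62, 10.79, 10.93 and 11.12 ex vivo. In naive cells it measured 9.41 and 9.39 with IL-7, against 10.44 and 10.64 ex vivo. The cultured arrays were lower in both cell types, with no overlap. It fell by 1.06 in memory cells (change -1.06, SE 0.22, 2.08-fold, adjusted p = 0.00779) and by 1.14 in naive cells (change -1.14, SE 0.25, 2.20-fold, adjusted p = 0.0128). The difference between the responses was 0.08 (95% interval -0.64 to 0.80). The naive call was lost with the mean of all probe sets of the gene. It was also lost without ex vivo naive array 2 or without either naive IL-7 array.

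Slc16a1 encodes MCT1, a proton-coupled carrier of lactate and pyruvate. It measured 7.54 and 7.40 in memory cells with IL-7, against 9.76, 9.99, 10.56 and 10.62 ex vivo. In naive cells it measured 8.40 and 8.79 with IL-7, against 10.52 and 10.88 ex vivo. The cultured arrays lay below every ex vivo array of their cell type, with wide gaps. It fell by 2.76 in memory cells (change -2.76, SE 0.45, 6.78-fold, adjusted p = 0.00435) and by 2.11 in naive cells (change -2.11, SE 0.52, 4.30-fold, adjusted p = 0.0202). The difference between the responses was -0.66 (95% interval -2.14 to 0.83, adjusted p = 0.753). The naive call of Slc16a1 was lost when any single one of the naive arrays compared was left out. A far dimmer second probe set changed by -0.41 and -0.77, neither past the threshold. Slc16a3, the gene of the other lactate exporter, MCT4, lay between 3.30 and 3.84 on all arrays, under the filter value.

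**Figure D4:**
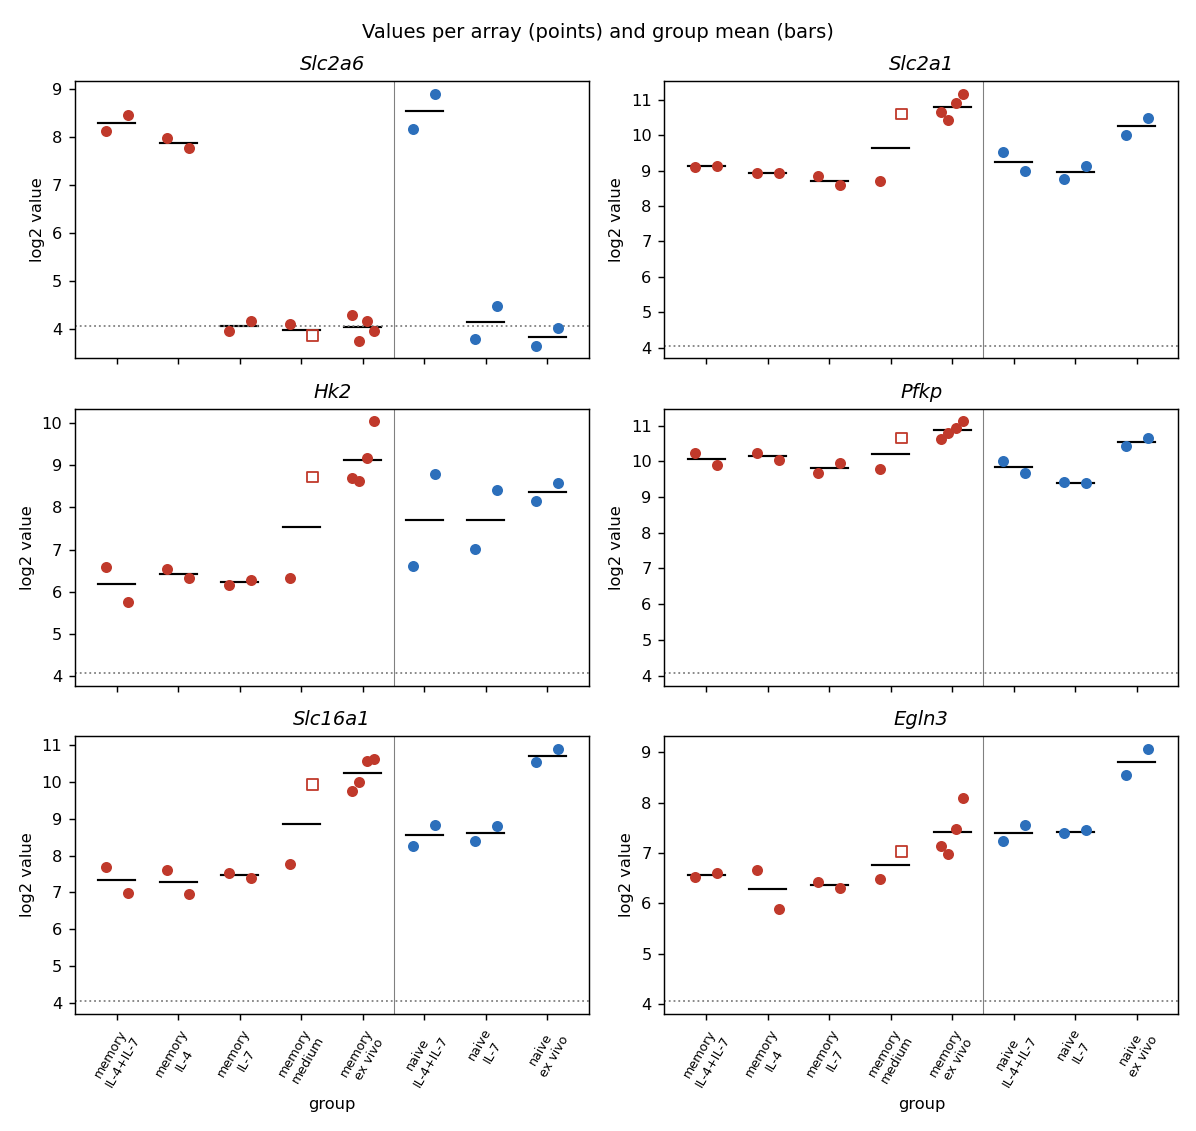
Log2 values per array (points) and group means (bars) of Slc2a6, Slc2a1, Hk2, Pfkp, Slc16a1 and Egln3 in the 8 groups on the x axis, memory cells left of the vertical line and naive cells right of it. The open square is memory medium array 2, which lies at ex vivo levels for Slc2a1 (10.59), Hk2 (8.72) and Slc16a1 (9.93), and the dotted line is the filter value of 4.06.

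Egln3 measured 6.42 and 6.31 in memory cells with IL-7, against 6.98 to 8.08 ex vivo, and 7.39 and 7.45 in naive cells with IL-7, against 8.55 and 9.06 ex vivo. It was lower in culture in both cell types, by 1.05 in memory cells (change -1.05, SE 0.29, adjusted p = 0.0217) and by 1.39 in naive cells (change -1.39, SE 0.33, adjusted p = 0.0172). Its dimmer probe set changed by -0.23 and -0.16, neither past the threshold.

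The pyruvate dehydrogenase kinase genes Pdk1 and Pdk3 were called in opposite directions in memory culture, and the call of Pdk3 was unsteady. Pdk1 measured 12.99 and 12.78 with IL-7, against 12.19, 12.04, 12.16 and 12.28 ex vivo, and rose by 0.72 (SE 0.15, 1.65-fold, adjusted p = 0.00804). Its other probe sets changed by 0.59, 1.13 and 3.44, of which the last, also the dimmest, passed (adjusted p = 0.0043), so the direction was shared and the size was not. Pdk3 measured 7.69 and 8.06 with IL-7, against 8.23, 8.22, 8.40 and 8.68 ex vivo, and fell by 0.51 (change -0.51, SE 0.16, adjusted p = 0.0434). This call of Pdk3 was lost without ex vivo array 3 or 4. It was also lost with another variance model, with the replicate block, and when only the compared arrays were fitted. Pdk2 was dim, at 3.98 to 4.86 over all arrays, and was not called. In naive cells none of the 3 kinases passed.

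In lower glycolysis, Aldoc, the gene of the brain-type aldolase, was the one member higher in naive IL-7 culture. It measured 5.14 and 5.30 with IL-7, against 3.65 and 4.32 ex vivo, and rose by 1.23 (SE 0.27, 2.35-fold, adjusted p = 0.011), with ex vivo values around the filter value. A dimmer probe set of Aldoc changed by -0.06. The change in memory cells was 0.12, and the difference between the responses was -1.11 (95% interval -1.87 to -0.36, adjusted p = 0.28). With all arrays fitted, none of the 7 tested genes of lower glycolysis was called in memory culture. Their changes there lay between -0.63 for Pgam1 and 0.12 for Aldoc. Pgam1 and Tpi1 (-0.58) were called in some refits, among them those without either one of the medium arrays. Pgk1 and Aldoa, among the 7, changed by 0.02 each, and Ldha changed by -0.31 in memory culture.

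**Figure D5:**
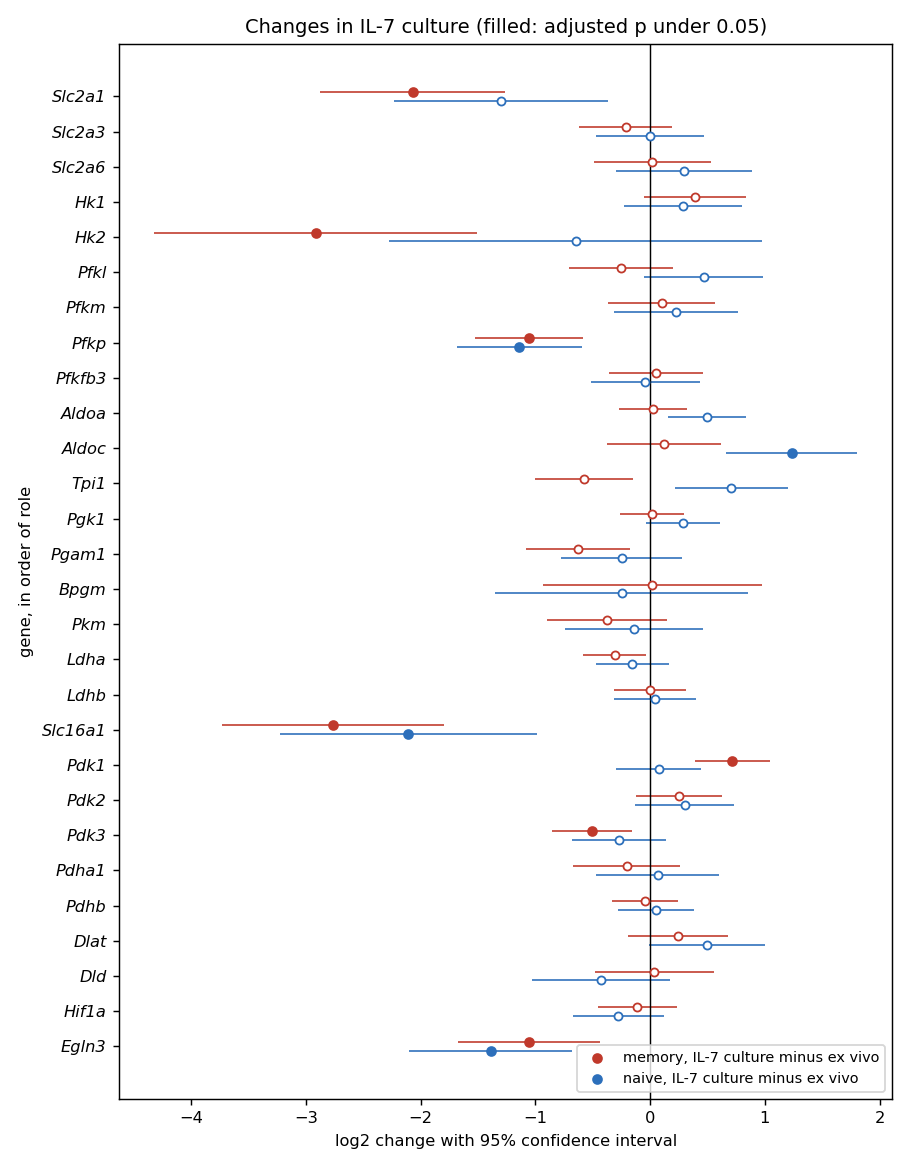
Change in IL-7 culture against ex vivo (x axis, log2, with its 95% confidence interval) of each of the 28 tested members (y axis, in order of role) in memory cells and in naive cells. Filled points have an adjusted p under 0.05: 7 in memory cells, among them Hk2 at -2.91, Slc16a1 at -2.76 and Slc2a1 at -2.07, and 4 in naive cells.

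Memory cells in medium gave no member past the threshold against ex vivo cells when both medium arrays were used (limma, 0 of 28, 7 at an unadjusted p under 0.05), beside 0% of all genes. Without medium array 2, 4 members were lower, beside 16.4% of all genes called in either direction: Hk2 at -2.80, Slc16a1 at -2.47, Slc2a1 at -2.09 and Pfkp at -1.09, with adjusted p between 0.000226 and 0.0119. All 4 are among those that were lower with IL-7, and both comparisons share the ex vivo arrays. No member passed the test of a different IL-7 culture response in memory and naive cells (limma, 0 of 28, 6 at an unadjusted p under 0.05), beside 0.0508% of all genes.

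Several measures moved with culture beside these genes. The 3' probe set of Gapdh, the gene of the glycolytic enzyme glyceraldehyde phosphate dehydrogenase, changed by -0.46 in memory IL-7 culture (adjusted p = 0.0648), the middle one by -0.80 (adjusted p = 0.0322) and the 5' one by -1.24 (adjusted p = 0.0183), so the change of Gapdh depended on the end of the transcript measured. The 3' minus 5' difference of Gapdh, a sign of RNA and labelling quality, was 2.67 to 3.36 on cultured arrays other than medium array 2, 2.35 on that array and 2.07 to 2.69 on ex vivo arrays. That of Actb, the second such control, was 1.63 to 2.25 on cultured arrays and 1.95 to 2.07 on ex vivo arrays, so it did not shift one way. The 4 markers of cells with MHC class II summed to 7.06 to 7.22 on the log2 scale in memory cells with IL-7, against 7.82 to 9.52 in ex vivo memory cells. The 5 B cell markers with a probe set summed to 8.48 to 8.78 with IL-7, against 8.07 to 8.53 ex vivo, a sum carried by Cd79b, which averaged 8.39 with IL-7 and 7.76 ex vivo. The mean of the 5 on the log2 scale ran the other way, at 4.64 to 4.81 with IL-7, against 4.92 to 5.36 ex vivo. The 8 macrophage and myeloid markers summed to 7.78 to 8.01 with IL-7, against 7.89 to 8.42. Of single markers, H2-Aa, Ms4a1 and Cd68 were lower in memory culture by 2.63, 1.43 and 1.16 (change -2.63, -1.43 and -1.16). The part of these in the culture changes was not tested.

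Bpgm, whose enzyme makes the regulator of haemoglobin in red cells, stood out on a single array. It measured 11.01 on ex vivo memory array 1, against 8.83 to 9.90 on the 17 others, and it was not called in any comparison. Alas2, a haem synthesis gene of red cell precursors and the 1 tested gene of that marker list, was also highest on that array, at 11.50, against 7.98 to 8.41 on the other ex vivo memory arrays and 5.54 and 6.15 in ex vivo naive cells. In cultured memory cells, the first arrays of the IL-4 and IL-7, IL-4, and IL-7 groups had Alas2 at 10.03, 9.89 and 10.09, and the second arrays at 7.15, 6.84 and 7.05. Bpgm on these arrays measured 9.15, 9.81 and 9.90 on the first, and 9.11, 8.83 and 9.36 on the second. The second red cell marker with a probe set, Hba-a1, lay at most at 3.71 on every array.

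In their brightest probe sets, the remaining members had no change past the threshold with all arrays fitted. Hk1, the gene of the housekeeping hexokinase, lay between 8.83 and 9.70 on all arrays. Pkm, the pyruvate kinase gene, lay between 9.15 and 10.47, and Pgk1, the phosphoglycerate kinase gene, between 12.08 and 12.54. The pyruvate dehydrogenase complex genes Pdha1, Pdhb and Dlat, which encode parts of its first and middle enzymes, lay at 10.06 to 11.48, 10.36 to 10.91 and 6.86 to 8.14. None of these genes, nor Pfkl, Pfkfb3 and Hif1a, was called in any of the 12 comparisons. In a second probe set of Pdha1 the change was -0.81 in memory against naive cells with IL-7 (adjusted p = 0.026) and 0.70 in naive culture (adjusted p = 0.0225), and the brightest one did not pass in either.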

How the data were processed

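Values are log2 RMA values of 45101 probe sets, background-corrected and normalized by the authors with RMA and deposited as 1 table, per the submitters' processing notes, which also name limma and give no versions. Arrays report no counts, so their number limits the precision. Array medians lay between 4.62 and 4.76.

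Gene symbols came from the platform annotation given for the array: 34958 probe sets had 1 symbol, and those with several (932) or none (9211) were left out. The brightest probe set, by its mean over 18 arrays, stood for a gene. Genes were tested when at least 2 arrays exceeded 4.06, the 40th percentile of the table. Contrasts between group means were fitted over all 18 arrays with limma 3.58.1 in R 4.3.3 (residual degrees of freedom 10, prior 4.13), two-sided, and adjusted by Benjamini and Hochberg across 13769 genes and no replicate block. The script was tested on simulated data. The 12 comparisons were all read.

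All 32 members are accounted for by role. Array values, or their range, are given for members past an IL-4 test or among the largest 2 changes of a comparison. The same holds for members called in a culture comparison or with unlike probe sets. Not every group is listed for each of them. The Gapdh control probe sets, the other probe sets and the refits without medium array 1 where that group was not compared were added after the data were seen. The members and lists were chosen with earlier results of these data known. Promoter sequences are RefSeq's, build GRCm38.p6. No set test was run.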

Additional observations from a re-analysis of the deposited data

How the results depend on the processing

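The 17 gene changes past the threshold were refitted 236 times, with another gene summary, filter, scaling, variance model or set of arrays, with a replicate block, or without single arrays. They passed in 198 refits, missed the threshold in 38 and kept their sign in all 236. Slc2a6 passed in every refit of its 3 IL-4 changes, and Ldhb in every refit of its 2. A further 12 changes missed the threshold with all arrays and passed without medium array 2. Their 162 refits include the ones that chose them, so a count of passes would be partly fixed in advance and is not given. Leaving out medium array 1 where the medium group was not compared was added after the data were seen. There it is the same fit as leaving out array 2, and both count among the refits above.

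The number of members called moved as follows. In memory cells with IL-7, IL-4 gave 2 members when only the compared arrays were fitted. In naive cells, IL-4 gave 2 with the mean of all probe sets, 2 with array medians set equal, and between 1 and 3 without single arrays. IL-4 without IL-7 gave between 1 and 7 without single arrays, and IL-7 without IL-4 gave between 0 and 5. Memory against naive cells gave between 1 and 3 ex vivo without single arrays, and 3 with IL-7 when only the compared arrays were fitted. Without single arrays, culture with IL-7 gave between 0 and 9 members in memory cells and between 0 and 7 in naive cells, and culture in medium gave between 0 and 4. Where a group was left with 1 array, its spread was taken from the other groups.

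With the replicate number as a block (the replicate block), memory IL-7 culture gave 4 members, beside 10.5% of all genes, and naive IL-7 culture 6, beside 12% of all genes. No other count of members changed. Arrays with the same number deviated together with correlations between 0.01 and 0.51. Memory arrays with IL-4 and IL-7 were closest to the IL-4 array of their number (r = 0.9939 and 0.9933, own group 0.99). Naive arrays with IL-4 and IL-7 were closest to the IL-7 array of their number (r = 0.9776 and 0.989, own group 0.9753). Naive IL-7 arrays were closest to each other, and memory IL-7 array 2 to medium array 1. No label says that a number marks a shared population, so the block is not part of the main model. Whether a number marks one was not tested. With 2 arrays in most groups and dim genes near the filter value, small changes could not be detected, and the cause of the lost calls was not tested.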

Other observations

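Genes of the pathway outside the 32 members were counted from lists, and their counts stand beside these shares of all genes. In memory IL-7 culture 11.1% of all genes were higher and 8.85% lower, in naive IL-7 culture 7.01% were higher and 5.8% lower, and ex vivo 1.93% differed between memory and naive cells. Of 22 tested genes of other glycolysis and glucose entry, 0 passed in any IL-4 comparison (limma). In memory IL-7 culture, 2 were higher, the gene of the regulatory enzyme Pfkfb2 (0.94, adjusted p = 0.0327) and Tigar, whose product lowers glycolytic flux (0.66, adjusted p = 0.0423), and 1 was lower, so 3 of 22 were called beside 19.9% of all genes. The lower one was Gpd2, the mitochondrial glycerol phosphate dehydrogenase gene, at -0.60 (adjusted p = 0.0376). In naive IL-7 culture, the enolase genes Eno2 and Eno3 and the glycogen synthase gene Gys1 were higher by 1.43, 0.94 and 0.76, and Gpd2 was again lower, at -1.08 (adjusted p = 0.00757). Gpd2 was also lower in ex vivo memory than in ex vivo naive cells, at -0.88 (adjusted p = 0.0244). Of the 6 tested pentose phosphate genes, Rpia was lower in memory culture (-0.90, adjusted p = 0.0106), and Pgls and Tkt were higher in naive culture (0.81 and 0.78). Of 8 tested genes of pyruvate use in mitochondria, the phosphatase gene Pdp1 was lower in naive culture (-1.03, adjusted p = 0.0269), and no other change passed.

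Of 21 tested target genes or partners of hypoxia-inducible factor outside the members, 2 were higher and 5 lower in memory IL-7 culture, beside 11.1% and 8.85% of all genes. The lower ones were Ankrd37 (-2.13), Car12 (-1.93), Ddit4 (-1.84), Adm (-1.48) and P4ha1 (-1.35), and the higher ones were Bnip3 (1.21) and Egln2 (0.59). The median of the 21 was -0.44, against -0.05 over all genes. In naive IL-7 culture, 0 were higher and 2 lower, Vhl (-0.99) and Arnt (-0.62), and the median was 0.00, against 0.07 over all genes. With IL-7, Ndrg1 (-3.40) and Ddit4 (-1.91) were lower in memory than in naive cells, beside 2.7% of all genes called in either direction. Ex vivo, Arnt (-0.71) was lower in memory than in naive cells, beside 1.93% of all genes. With IL-4, Epas1, the gene of a second oxygen-regulated subunit, was higher by 1.28 in memory cells without IL-7 (adjusted p = 0.0166) and by 1.61 in naive cells (adjusted p = 0.00387). Its change in memory cells with IL-7 was 0.98 and missed the threshold (limma, adjusted p = 0.0648).

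Of 13 regulators of glycolytic genes, Myc was higher with IL-4 in memory cells without IL-7, by 1.80 (adjusted p = 0.023). It measured 9.44 and 9.22 with IL-4, against 7.50 and 7.57 in medium. Without medium array 2 the change was 1.84 and missed the threshold (adjusted p = 0.0698). The change of Myc with IL-4 was 1.13 in memory cells with IL-7 (adjusted p = 0.162) and -0.47 in naive cells (adjusted p = 0.804). In naive IL-7 culture it measured 10.24 on both arrays, against 7.55 and 7.64 ex vivo, a rise of 2.64 (adjusted p = 0.00155). In memory cells with IL-7 it measured 9.05 and 7.69, lower than in naive cells with IL-7 by 1.87 (change -1.87, adjusted p = 0.0138). Myc was high on the naive IL-7 arrays, where Slc2a1, Pfkp and Slc16a1 were below ex vivo levels. Aldoc, Tpi1, Aldoa, Pgk1 and Pfkl were above ex vivo levels on those arrays. Of these members, only Pfkp, Slc16a1 and Aldoc were called with all arrays fitted. The part of Myc in these changes was not tested. In memory IL-7 culture, Nr4a1, Irf4 and Akt2 were lower, at -6.94, -4.29 and -0.45. Bcl6 was lower in naive IL-7 culture, at -2.73, and Akt2 was lower in memory than in naive cells with IL-7, at -0.66.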
